A study of Rattus norvegicus with 71 samples.

Results

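The receptors that bind the constant (Fc) part of immunoglobulin G (IgG) and the genes they work with were followed in the newborn rat brain: Fcgrt, which encodes the heavy chain of the neonatal Fc receptor FcRn, its light chain B2m, the activating receptors Fcgr1a and Fcgr3a with their signalling subunit Fcer1g, the inhibitory receptor Fcgr2b, and Trim21, a cytosolic receptor for antibody. They were taken by symbol from the deposited count table and are 7 of its 17494 genes, all 7 of which were found. RNA was sequenced from coronal brain slices of 71 wild-type Sprague-Dawley rats at postnatal day (PND) 2, from 27 litters. In this rat model of maternal autoantibody-related (MAR) autism, dams were immunised before breeding with peptides of fetal brain proteins in adjuvant, so that the offspring were exposed in utero to maternal IgG against those proteins. The 24 control animals (12 male, 12 female, 7 litters) came from dams given adjuvant and saline. The 47 animals exposed to MAR autism autoantibodies (MARA-AB) came from 20 litters and fell into 4 patterns, CRMP1+CRMP2 (8 animals, 4 litters), LDHA/B+CRMP1+STIP1 (25 animals, 9 litters), CRMP1+GDA (6 animals, 3 litters) and STIP1+NSE (8 animals, 4 litters). Control dams received the same adjuvant, so exposure here means immunisation with peptides on top of it, and the offspring themselves were not treated. The animals were sequenced in 2 batches, read from the series their titles belong to: batch 1 held 12 controls (3 litters) and 16 LDHA/B+CRMP1+STIP1 animals (4 litters), and batch 2 held 12 controls (4 litters), 9 LDHA/B+CRMP1+STIP1 animals (5 litters) and all animals of the other 3 patterns. Littermates shared a dam, so p-values over animals measure the spread between animals and not only that between dams.

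IgG is the one antibody class that crosses from mother to young in quantity, and FcRn is the receptor that carries it. FcRn is built like an MHC class I molecule, a heavy chain paired with beta-2-microglobulin, and it binds IgG in acidic endosomes and releases it at the cell surface; in the brain it is known from the endothelium of the blood-brain barrier and from the choroid plexus, while in rodents the yolk sac and the newborn gut are its best known sites of transfer. The Fc gamma receptors sit on myeloid cells, in the brain chiefly microglia and macrophages at the borders, where Fcgr1a (CD64) and Fcgr3a signal through the common gamma chain Fcer1g and Fcgr2b (CD32) counters them. Trim21 binds antibody that has entered the cytosol and directs what it coats to the proteasome, and its expression is raised by interferon.

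In the annotation the authors counted on (rat build rn7), Fcgrt lies on chr1:95574441-95583560 (minus strand) and Trim21 on chr1:156967484-156978853 (minus strand). B2m lies on chr3:109095740-109101764 (plus strand) and Fcgr1a on chr2:183851076-183859993 (minus strand). The others share chromosome 13: Fcgr2b on chr13:83193163-83207752 (minus strand), Fcgr3a on chr13:83249905-83259921 (plus strand) and Fcer1g on chr13:83649447-83653880 (minus strand). Reads were counted over the exons of each gene, and 0 exon bases of the 7 genes were shared with another gene of the table. Fcgr2b, Fcgr3a and the related Fcgr2a of the same cluster are close paralogs, and whether reads that fit several of them were counted is not given in the sources used here, so their separate levels are uncertain. The symbols follow the rat annotation, in which Fcgr3a is the receptor called Fcgr4 in the mouse and Fcgr2a the one called Fcgr3.

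Promoter sequence from RefSeq (build GRCr8, another build than that of the counts) was found for 4 of the 7 genes, Fcgrt, B2m, Fcgr3a and Trim21. It is shown because all 4 held the same motif, the core of the interferon-stimulated response element (GAAA, any 2 bases, then GAAA), searched on both strands of the 250 bases before each RefSeq start. That core occurred in 1140 of 33465 rat promoters of the same length, 3.41%. Each line below gives the last 200 bases before the start, 5′ to 3′ on the gene's strand, with the bases of the core in capitals. The windows are chr1:104720027-104720226 (minus strand) for Fcgrt, chr3:129549130-129549329 (plus strand) for B2m, chr13:85782436-85782635 (plus strand) for Fcgr3a and chr1:166399372-166399571 (minus strand) for Trim21.
Fcgrt: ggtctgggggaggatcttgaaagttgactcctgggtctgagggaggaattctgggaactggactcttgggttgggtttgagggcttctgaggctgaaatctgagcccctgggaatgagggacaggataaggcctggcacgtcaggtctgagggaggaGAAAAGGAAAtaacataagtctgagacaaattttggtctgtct
B2m: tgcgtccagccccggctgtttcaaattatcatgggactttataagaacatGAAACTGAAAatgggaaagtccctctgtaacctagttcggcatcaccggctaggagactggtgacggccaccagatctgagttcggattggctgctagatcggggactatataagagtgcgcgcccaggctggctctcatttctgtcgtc
Fcgr3a: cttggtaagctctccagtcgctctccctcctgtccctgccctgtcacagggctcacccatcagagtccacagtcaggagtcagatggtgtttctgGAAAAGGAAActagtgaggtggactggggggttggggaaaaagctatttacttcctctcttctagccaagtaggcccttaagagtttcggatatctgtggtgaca
Trim21: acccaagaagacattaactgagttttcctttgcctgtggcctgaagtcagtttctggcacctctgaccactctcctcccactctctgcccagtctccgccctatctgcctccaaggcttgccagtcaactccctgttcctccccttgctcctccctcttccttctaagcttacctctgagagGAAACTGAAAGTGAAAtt
The core began 43 bases before the start in Fcgrt, 150 in B2m and 105 in Fcgr3a, and Trim21 held 2 overlapping copies that began 18 and 12 bases before it. The PU.1 core GAGGAA, a motif of myeloid genes found in 23.3% of promoters, was present in 2 copies in Fcgrt, 1 in Fcgr3a and 2 in Trim21, 1 of which overlapped the interferon motif by position, and B2m held 0. The Sp1 box GGGCGG (30.5% of promoters) was found in Trim21 alone of the 4, and the CRE core TGACGTCA (1.59%) in 0 of the 4. A match is a description of the letters and not a measured binding site.

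All 7 genes had reads in every animal, at total counts of 24880182 to 36234952 per sample (median 28439195), so that 1 CPM (counts scaled to a common library total) stood for 24.9 to 36.2 reads. Both chains of FcRn led. Per exon length, in RPKM (reads per exon kilobase, scaled to library size as CPM is), B2m had a median of 45.1 RPKM (range 25.0 to 64.4) over the 71 animals and Fcgrt a median of 10.2 RPKM (range 3.53 to 23.4), and the lowest B2m value was above the highest Fcgrt value. Fcer1g followed at a median of 6.39 RPKM (range 2.80 to 13.9), which overlapped Fcgrt.

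The ligand-binding Fc gamma receptors were near the limit of what this depth measures. Fcgr3a had a median of 0.793 RPKM (range 0.0599 to 1.47), Trim21 one of 0.507 RPKM (range 0.0497 to 1.27), Fcgr1a one of 0.426 RPKM (range 0.0574 to 1.74) and Fcgr2b one of 0.310 RPKM (range 0.0578 to 0.929). These 4 genes overlapped each other throughout. In reads, medians were 26 for Fcgr3a, 22 for Trim21, 14 for Fcgr1a and 12 for Fcgr2b, against 115 for Fcer1g, 431 for Fcgrt and 2334 for B2m. At 1 CPM or more, Fcgr1a was found in 5 of 71 animals and Fcgr2b in 2, Trim21 in 22 and Fcgr3a in 32, while Fcgrt, B2m and Fcer1g were in all 71. The related receptor Fcgr2a was the best detected of the Fc gamma receptors, at a median of 1.85 CPM and with 62 animals at 1 CPM or more. The depth of the 4 low genes limited their precision: in batch 1 the coefficient of variation between animals was 49.2% for Fcgr1a, where counting each read pair once would alone give 36.8%, against 28.2% for Fcgrt, where it would give 7.69%. Read counts of Fcgr3a were even in 71 of 71 animals, and 74.5% of all counts from 1 to 9 in the table were even.

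**Figure D1:**
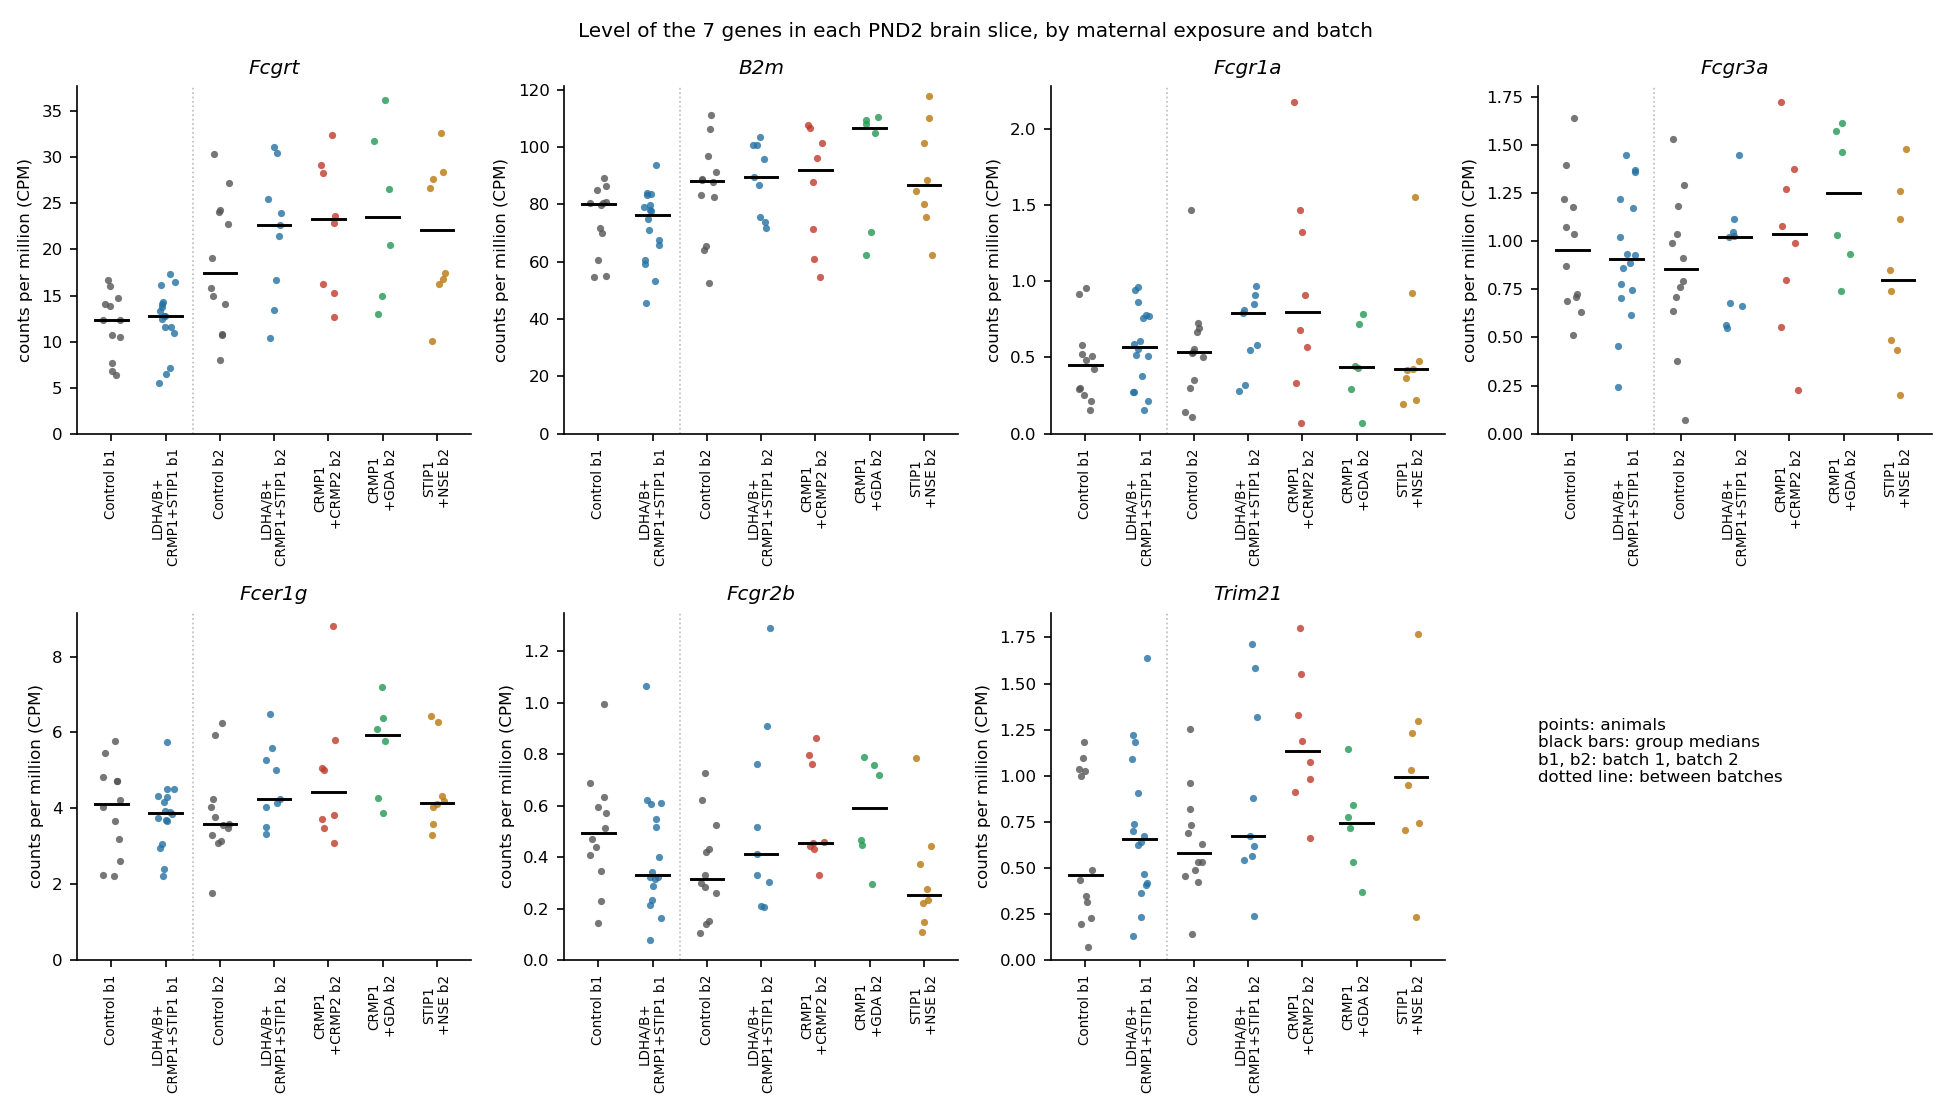
Level of each of the 7 genes in CPM (vertical axes, linear, from 0) in every animal, by maternal exposure and sequencing batch (b1, b2); points are animals and black bars are group medians. Fcgrt sits between 5.48 and 17.3 CPM in batch 1 and reaches 36.2 CPM in batch 2, and for each of the 7 genes the exposed groups overlap the controls of their own batch.

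Fcgrt, the heavy chain of FcRn, was spread over more than its groups. The lowest, median and highest control values were 6.36, 12.3 and 16.6 CPM in batch 1 and 7.97, 17.4 and 30.4 CPM in batch 2. Its LDHA/B+CRMP1+STIP1 values were 5.48, 12.8 and 17.3 CPM in batch 1 and 10.4, 22.6 and 31.1 CPM in batch 2. Of 43 animals of batch 2, 26 lay above the highest of batch 1, among them 6 of 12 controls. The other patterns, all of batch 2, had lowest, median and highest values of 12.7, 23.3 and 32.4 CPM (CRMP1+CRMP2), 13.0, 23.6 and 36.2 CPM (CRMP1+GDA) and 10.1, 22.1 and 32.7 CPM (STIP1+NSE). Each overlapped the batch 2 controls over most of its range, and 5 of 8, 4 of 6 and 5 of 8 animals respectively lay above the median control of batch 2.

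B2m, which FcRn shares with all MHC class I molecules, varied less. Control values were 54.7, 80.1 and 89.4 CPM (lowest, median, highest) in batch 1 and 52.5, 88.3 and 111.3 CPM in batch 2. LDHA/B+CRMP1+STIP1 animals had 45.7, 76.3 and 93.8 CPM in batch 1 and 71.6, 89.5 and 103.7 CPM in batch 2. CRMP1+CRMP2 animals had 54.6, 92.0 and 107.8 CPM, CRMP1+GDA animals 62.3, 106.6 and 110.4 CPM and STIP1+NSE animals 62.4, 86.6 and 117.7 CPM. The B2m ranges of all groups overlapped.

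Fcer1g, the subunit that Fcgr1a and Fcgr3a need to reach the surface and to signal, had 2.23, 4.13 and 5.78 CPM in the controls of batch 1 and 1.77, 3.58 and 6.24 CPM in those of batch 2 (lowest, median, highest). In batch 2 its medians were 4.24 CPM in LDHA/B+CRMP1+STIP1 (range 3.33 to 6.48), 4.42 CPM in CRMP1+CRMP2 (3.09 to 8.81), 5.94 CPM in CRMP1+GDA (3.87 to 7.19) and 4.15 CPM in STIP1+NSE (3.31 to 6.44). All 6 CRMP1+GDA animals lay above the median batch 2 control, although their range still overlapped the controls. Fcgr3a, an activating receptor, had medians of 0.955 CPM (0.512 to 1.64) and 0.853 CPM (0.0703 to 1.53) in the controls of batches 1 and 2. Its exposed medians ran from 0.797 CPM in STIP1+NSE to 1.25 CPM in CRMP1+GDA (0.743 to 1.62). Fcgr1a, the receptor of highest affinity for IgG, had control medians of 0.453 and 0.533 CPM. Its highest median was 0.796 CPM in CRMP1+CRMP2, whose 8 animals ran from 0.0720 to 2.17 CPM, below and above every control. Its lowest was 0.421 CPM in STIP1+NSE.

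Fcgr2b, the inhibitory receptor, had control medians of 0.492 CPM (0.143 to 0.996) in batch 1 and 0.315 CPM (0.106 to 0.725) in batch 2. Its exposed medians were between 0.255 CPM in STIP1+NSE and 0.592 CPM in CRMP1+GDA, with 0.332 CPM in batch 1 and 0.412 CPM in batch 2 for LDHA/B+CRMP1+STIP1. Trim21, the cytosolic receptor, had 0.0703, 0.464 and 1.18 CPM (lowest, median, highest) in the controls of batch 1 and 0.141, 0.582 and 1.25 CPM in those of batch 2. In CRMP1+CRMP2 it had 0.665, 1.13 and 1.80 CPM, and 8 of 8 animals lay above the median batch 2 control. The STIP1+NSE values were 0.232, 0.992 and 1.77 CPM with 7 of 8 animals above that median, and the LDHA/B+CRMP1+STIP1 values were 0.130, 0.658 and 1.64 CPM in batch 1 and 0.240, 0.674 and 1.72 CPM in batch 2. CRMP1+GDA had 0.371, 0.746 and 1.15 CPM. The upper part of the control range of Trim21 overlapped every exposed group.

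Whether exposure to maternal MARA-AB changed the receptors was asked with edgeR's quasi-likelihood test over all genes, called at a false discovery rate (FDR, Benjamini-Hochberg) under 0.1, first for all 47 exposed animals against 24 controls with 1 surrogate variable. Of the 7 genes, 5 passed the filter of at least 1 CPM in at least 8 samples, and 0 of these 5 were called, where 0.00801% of all 12477 genes tested were. At an unadjusted p under 0.05 it was 1 of the 5, Trim21, beside 10.2% of all genes. Without the filter, 0 of all 7 were called (0.0871% of all genes), with log2 differences of 0.30 for Fcgr1a (95% interval −0.15 to 0.74) and 0.11 for Fcgr2b (−0.29 to 0.52). Trim21 was higher in exposed animals by 0.44 on the log2 scale (SE 0.20, edgeR p = 0.0295, FDR 0.43). With counts summed per litter its difference was 0.51 (edgeR FDR 0.951). For Fcgrt the difference was 0.24 (SE 0.12, 95% interval −0.00 to 0.48, edgeR p = 0.0512, FDR 0.489), for Fcer1g 0.15 (−0.05 to 0.34), for Fcgr3a 0.04 (−0.29 to 0.37) and for B2m 0.03 (−0.10 to 0.16). The interval of B2m was the narrowest of the 5 and that of Trim21 the widest. Within batch 2 alone, with sex in the model, the differences were 0.28 for Fcgrt, 0.32 for Fcer1g (edgeR p = 0.0213, FDR 0.761), 0.60 for Trim21 (edgeR p = 0.0120, FDR 0.745), 0.17 for Fcgr3a and 0.06 for B2m. A fit within batch 1 is that of LDHA/B+CRMP1+STIP1, the one pattern it holds. In these bulk slices, fewer cells of a type and less RNA per cell cannot be told apart.

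**Figure D2:**
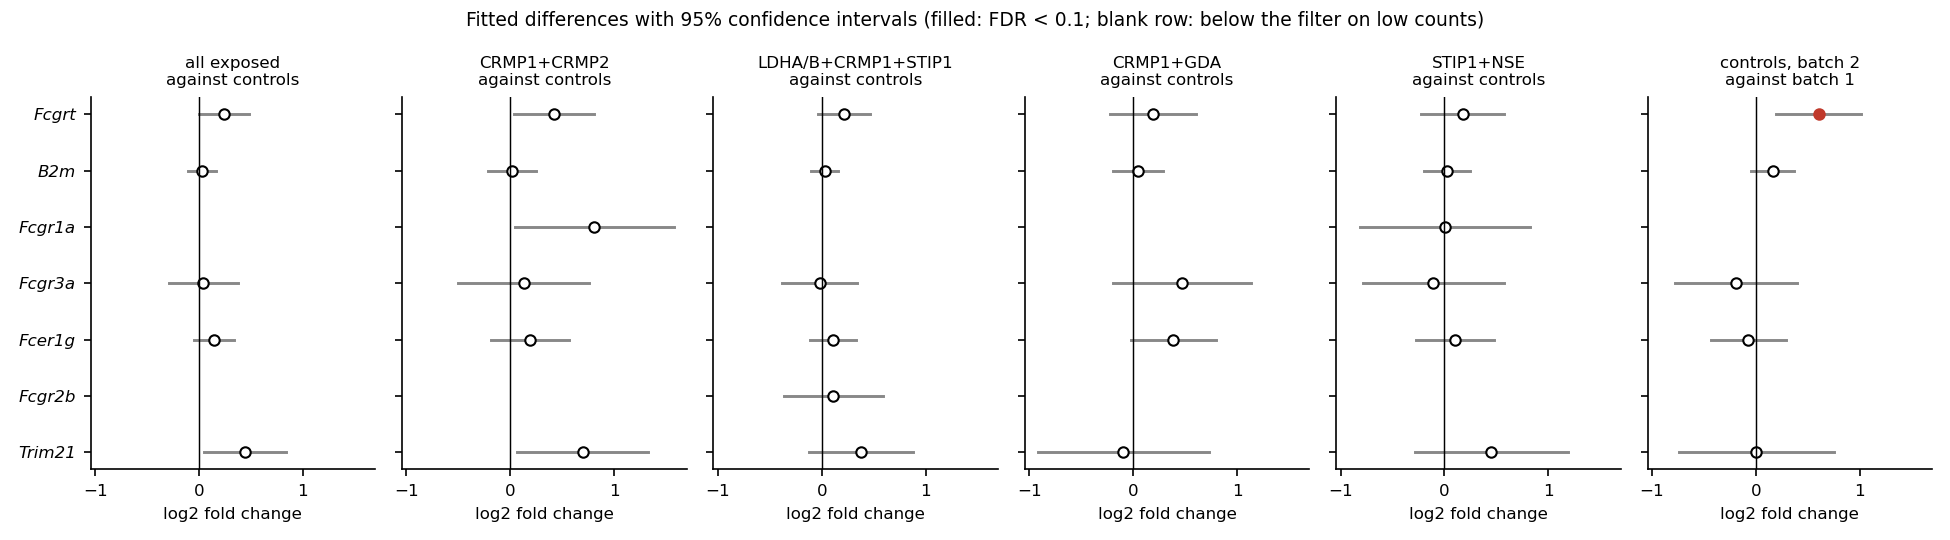
Fitted log2 fold changes (horizontal axes) with 95% confidence intervals for each gene in 6 comparisons; filled points passed FDR < 0.1 and a blank line means that the gene did not pass the filter on low counts. The single filled point is Fcgrt between the controls of both batches, 0.61, and in the 5 exposure panels most intervals span 0.

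The 4 patterns were each set against the same 24 controls, which they share. In CRMP1+CRMP2, 11.4% of all genes tested were called and 24.4% had an unadjusted p under 0.05. Of the 6 receptor genes tested there 0 were called. Fcgr1a entered this fit through the 3 CRMP1+CRMP2 animals and the 1 control over 1 CPM, so its difference (0.81, SE 0.38, edgeR FDR 0.180) is a description, and Fcgr2b did not enter it. Of the other 5 genes, 2 had an unadjusted p under 0.05, both higher in exposed animals (11.2% of all genes were higher at that p). These were Fcgrt (0.42 on the log2 scale, SE 0.19, edgeR p = 0.0343, FDR 0.173) and Trim21 (0.70, SE 0.31, edgeR p = 0.0316, FDR 0.165). Those p-values are over animals, while dams were immunised. With counts summed per litter, Fcgrt had 0.23 (edgeR FDR 0.656) and Trim21 0.81 (edgeR FDR 0.408). In limma voom with litters as random effects, Fcgrt had 0.36 (limma FDR 0.438) and Trim21 0.87 (limma FDR 0.256). Leaving out 1 litter at a time, Fcgrt ran from 0.14 (edgeR FDR 0.666, without 1 CRMP1+CRMP2 litter) to 0.57 and Trim21 from 0.58 to 0.80. Against the batch 2 controls alone, the differences were 0.27 for Fcgrt (edgeR p = 0.258), 0.78 for Fcgr1a (edgeR p = 0.102) and 0.82 for Trim21 (SE 0.25, edgeR p = 0.00408, FDR 0.122). B2m differed by 0.02 (95% interval −0.21 to 0.25), Fcer1g by 0.19 and Fcgr3a by 0.13. Without the CRMP1+CRMP2 animal highest in 5 of the 7 genes, a setting chosen after seeing the data, the values were 0.39 for Fcgrt, 0.57 for Fcgr1a, 0.63 for Trim21 and 0.06 for Fcer1g, with 0 of 6 genes called beside 4.8% of all genes. Markers of other cell types also differed in this fit, with exposed animals all of batch 2 and 12 controls of batch 1. Called higher were 9 of 10 choroid plexus, 5 of 8 mast cell and 5 of 5 pineal markers. So were 2 of 5 border macrophage and 1 of 6 red blood cell markers. Of microglia markers 0 of 14 and of endothelium markers 0 of 10 were called. Called lower were 2 of 11 neuron, 2 of 6 oligodendrocyte lineage and 1 of 6 astrocyte and radial glia markers. Between the control batches, 10 of 10 choroid plexus and 8 of 8 mast cell markers were called higher in batch 2. The edgeR test over the 5 groups of batch 2 called 0.00785% of all genes. Of choroid plexus, mast cell and pineal markers it called 0 of 10, 0 of 9 and 0 of 5. At an unadjusted p under 0.05 there were 0, 1 and 4 of them, beside 7.81% of all genes. In STIP1+NSE, 3 of 5 pineal markers were called higher. The summed pineal markers had a median of 5.70 CPM and a highest value of 249.0 CPM in CRMP1+CRMP2, against 2.73 to 6.58 CPM in the batch 2 controls. The summed border macrophage markers ran from 9.29 to 43.3 CPM in CRMP1+CRMP2 and from 4.63 to 23.3 CPM in the batch 2 controls. The summed choroid plexus markers ran from 246.8 to 3584 CPM in CRMP1+CRMP2 and from 161.1 to 3102 CPM in the batch 2 controls. In the batch 1 controls they ran from 24.7 to 130.4 CPM, with no overlap with those of batch 2. With that sum as a covariate Trim21 was called (0.91, edgeR FDR 0.0814) and the other 5 genes tested were not, beside 13.6% of all genes. That fit held all 24 controls, so the sum in it also separated the control batches. With the microglia sum as the covariate instead, 0 were called, and the differences were 0.43 for Trim21 (edgeR FDR 0.328), 0.19 for Fcgrt and 0.42 for Fcgr1a. With the endothelium sum Fcgrt had 0.13 and Trim21 0.61, and with the first 2 principal components Fcgrt had −0.017 and Trim21 0.46 (edgeR FDR 0.359). The CRMP1+CRMP2 differences of Fcgrt and Trim21 thus changed in size, and for Fcgrt in sign, with the covariate chosen.

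In LDHA/B+CRMP1+STIP1, the largest group, 0 of 6 receptor genes were called (0.0157% of all genes) and 0 had an unadjusted p under 0.05 (7.17% of all genes). Fcgrt differed by 0.22 (95% interval −0.04 to 0.47) and Trim21 by 0.38 (−0.12 to 0.88), with 0.11 for Fcer1g, 0.03 for B2m, −0.02 for Fcgr3a and 0.11 for Fcgr2b. This pattern was sequenced in both batches. Within batch 1 the differences were 0.05 for Fcgrt, 0.21 for Trim21 and −0.05 for Fcer1g, and within batch 2 they were 0.24, 0.53 and 0.26. The test of the difference between the batches, an interaction term, called 0 of the 6 genes (0.11% of all genes; 0 of the 6 at an unadjusted p under 0.05, beside 3.05% of all genes). Fcgr2b entered this test and that of the pattern through 2 LDHA/B+CRMP1+STIP1 animals over 1 CPM, where 0 of 24 controls were, so its fitted values are a description. Fcgr2b sat at medians of 0.332 CPM in exposed and 0.492 CPM in control animals of batch 1, and at 0.412 and 0.315 CPM in batch 2.

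The smaller patterns gave no call among the receptors with the same test. In CRMP1+GDA, 0 of 5 genes tested were called (0% of all genes) and 0 had an unadjusted p under 0.05 (3.65% of all genes). Fcer1g and its partner Fcgr3a were furthest from 0, at 0.39 (95% interval −0.02 to 0.80, edgeR p = 0.0639) and 0.47 (−0.19 to 1.14). Against the batch 2 controls alone, Fcer1g was 0.54 higher (SE 0.20, edgeR p = 0.0150, FDR 0.956). In STIP1+NSE, 0 of 6 genes were called (0.0474% of all genes) and 0 had an unadjusted p under 0.05 (3.19% of all genes), with 0.45 for Trim21 (95% interval −0.28 to 1.19) and 0.17 for Fcgrt (−0.23 to 0.57). Fcgr1a entered this fit through 1 STIP1+NSE animal and 1 control over 1 CPM, so its difference (0.006) is a description. Within batch 2 Trim21 was 0.63 higher there (edgeR p = 0.0430, FDR 1.00). One test over all 5 groups of batch 2, where they were sequenced together, called 0 of 6 genes (0.00785% of all genes; 0 of 6 at an unadjusted p under 0.05, beside 7.81%). Its smallest p-values were those of Trim21 (edgeR p = 0.0762, FDR 0.642) and Fcer1g (edgeR p = 0.0911, FDR 0.642), and Fcgrt had p = 0.575 in the same edgeR fit. Fcgr1a entered that fit through 5 animals over 1 CPM, 3 of them CRMP1+CRMP2.

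By sex the animals overlapped in each gene. Sex was in part mixed with litter. In batch 2, a control litter with females alone and a control litter with males alone had Fcgrt means of 11.9 and 20.8 CPM. Of 5 genes, 0 were called between 35 males and 36 females (0.0641% of all genes) and 0 had an unadjusted p under 0.05 in edgeR (4.71% of all genes). Male minus female differences were 0.05 for Fcgrt (95% interval −0.18 to 0.28), −0.04 for B2m (−0.17 to 0.09), 0.06 for Fcer1g (−0.13 to 0.25), 0.07 for Fcgr3a (−0.25 to 0.38) and 0.28 for Trim21 (−0.09 to 0.65).

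Between the controls of batch 2 and batch 1, where no immunogen was given, 1 of the 5 genes tested was called, beside 41.5% of all genes. This was Fcgrt, 0.61 higher in batch 2 (SE 0.20, edgeR p = 0.00527, FDR 0.0202). B2m differed by 0.16 (95% interval −0.04 to 0.37), Fcer1g by −0.07 (−0.44 to 0.29), Fcgr3a by −0.19 (−0.78 to 0.40) and Trim21 by 0.00 (−0.74 to 0.75). With counts summed per litter (3 against 4 litters) the Fcgrt difference was 0.70 (edgeR FDR 0.155), and 0 of 5 genes were called beside 15.7% of all genes. In a limma voom fit whose random effect was the litter it was 0.64 (limma FDR 0.116), and 0 of 5 were called beside 22.4%. Leaving out 1 litter at a time, the Fcgrt call was lost without 1 litter of batch 1 (0.46, edgeR FDR 0.141) or 1 of batch 2 (0.54, edgeR FDR 0.107). All 10 choroid plexus markers and all 8 mast cell markers were called higher in the batch 2 controls. The summed choroid plexus markers were 24.7 to 130.4 CPM in batch 1 controls and 161.1 to 3102 CPM in batch 2 controls, with no overlap, while the microglia sums were 63.8 to 124.9 CPM and 51.4 to 134.0 CPM. With the choroid plexus sum in the model the Fcgrt difference was −0.32 (edgeR FDR 0.641). B2m (−0.50) and Fcer1g (−0.96) were called instead, both at an edgeR FDR of 0.0743, beside 20.8% of all genes. As those sums do not overlap, batch and choroid plexus content cannot be told apart for Fcgrt, B2m or Fcer1g. With the microglia sum in the model, Fcgrt (0.79) and B2m (0.25) were called, beside 47.9%.

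The litter means of both FcRn chains spread more widely in batch 2, which had more litters, most of them of fewer animals. A range over more means of fewer animals is wider even where litters do not differ. In batch 1 the litter means of Fcgrt ran from 9.29 to 15.3 CPM over 7 litters, and in batch 2 from 11.9 to 33.98 CPM over 20. The lowest and highest litter means in batch 2 belonged to a control and to a CRMP1+GDA litter, and every pattern had litters on both sides of the batch 2 median of 21.9 CPM. Control litters of batch 2 alone ran from 11.9 to 28.8 CPM. B2m litter means were 67.5 to 81.5 CPM in batch 1 and 66.3 to 113.9 CPM in batch 2. Differences between litters, group differences included, took 0.370 of the variance of Fcgrt in batch 1 and 0.685 in batch 2, beside a median over all genes of 0.303 and 0.647. For B2m the shares were 0.190 and 0.766, for Fcer1g 0.459 and 0.649, and for the 4 low genes between 0.172 and 0.493 in batch 1 and between 0.537 and 0.594 in batch 2. Litters that do not differ would on average take 0.222 of the variance in batch 1 and 0.452 in batch 2, whose litters held fewer animals. In batch 1 B2m and Fcgr3a lay below that value and the other 5 genes above it, and in batch 2 all 7 lay above it. The study also set its litters in cohorts by the days of birth and collection, which were not analysed here, and their part in the litter means was not tested.

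**Figure D3:**
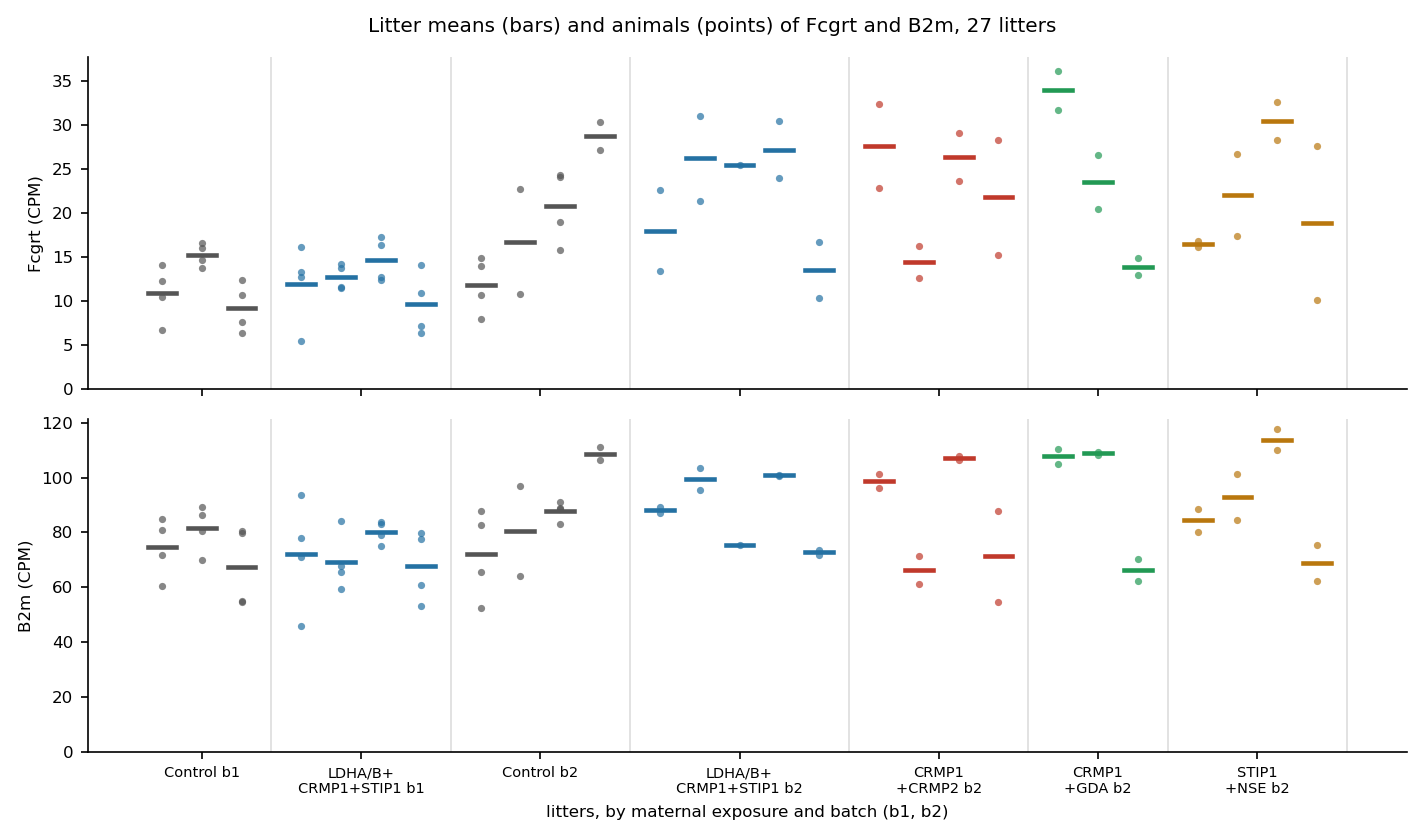
Fcgrt (top) and B2m (bottom) in CPM (vertical axes, linear, from 0) in each of 27 litters, ordered by maternal exposure and batch; points are animals and bars are litter means. Fcgrt litter means spread from 9.29 to 15.3 CPM in batch 1 and from 11.9 to 33.98 CPM in batch 2, with high and low litters in each batch 2 group. Batch 2 has more litters, most of them of fewer animals, which alone widens such a range.

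How much the receptors followed the cellular makeup of a slice was asked by regressing each gene on the summed CPM of 14 microglia markers, none of them among the 7 genes, with group, batch and sex in the model. All 5 genes tested were called higher with a higher sum, beside 41.8% of all genes in either direction and 20.1% in that direction. Per doubling of the sum, Fcgrt rose by 1.21 log2 units (SE 0.11, edgeR FDR 7.1e-14), Fcgr3a by 1.00 (SE 0.21, edgeR FDR 0.000144), Trim21 by 0.81 (SE 0.28, edgeR FDR 0.0185), Fcer1g by 0.75 (SE 0.11, edgeR FDR 1.9e-07) and B2m by 0.59 (SE 0.07, edgeR FDR 1.9e-09). The sum itself ran from 51.4 to 169.9 CPM. Within batch 2 alone all 5 slopes passed again, at 1.11, 1.07, 0.68, 0.73 and 0.58 in the same order, beside 43.5% of all genes. In batch 1 alone 3 did, Fcgrt (1.41), Fcer1g (0.81) and B2m (0.63), beside 14.5%. Those 3 also did among the 24 controls alone (1.19, 0.73 and 0.60), where 4 of the genes could be tested and 28% of all genes passed, and all 5 did in the limma voom fit with litters as random effects (37.5%). Without the filter on low counts 7 of 7 genes passed (33.4% of all genes), the high-affinity receptor Fcgr1a at 1.15 (SE 0.26, edgeR FDR 0.000641) and the inhibitory Fcgr2b at 1.02 (SE 0.26, edgeR FDR 0.00234).

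**Figure D4:**
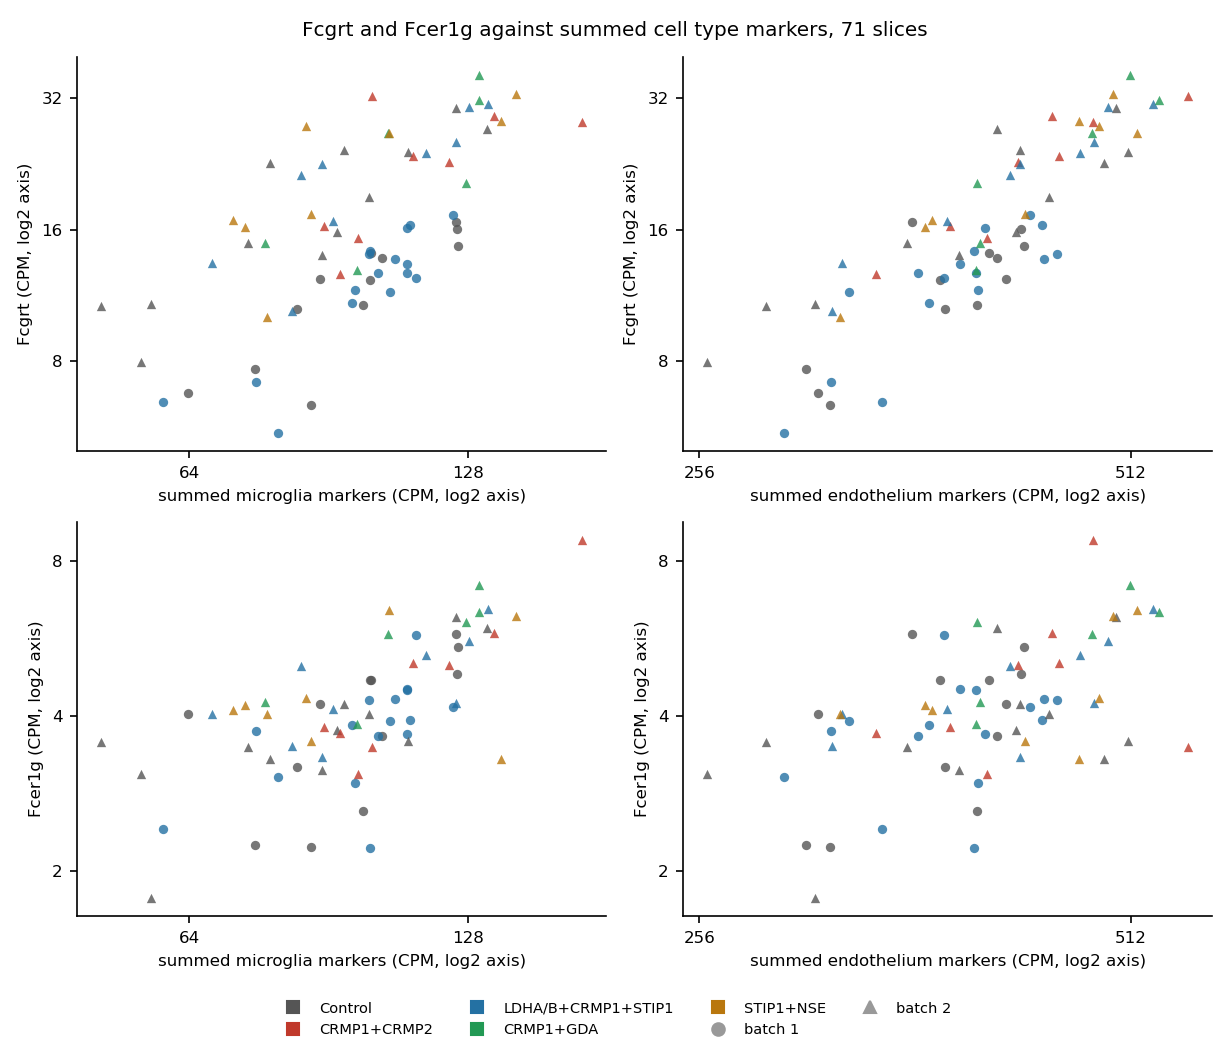
Fcgrt (top) and Fcer1g (bottom) against the summed microglia markers (left) and the summed endothelium markers (right) in 71 slices, all axes in CPM on log2 scales; colours are maternal exposures, circles batch 1 and triangles batch 2. Both genes rise with both sums, and the CRMP1+CRMP2 animal at a microglia sum of 169.9 CPM has the highest Fcer1g value, 8.81 CPM.

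Since FcRn is known from vessels, the same regression was run on 10 endothelium markers (sums of 259.4 to 561.3 CPM), a choice made after seeing the data. All 5 genes again passed, beside 44.9% of all genes in either direction and 20.6% upward. Fcgrt rose by 1.95 per doubling (SE 0.12, edgeR FDR 1.9e-21), Trim21 by 0.89 (SE 0.41, edgeR FDR 0.0791), B2m by 0.84 (SE 0.11, edgeR FDR 2.2e-09), and Fcer1g and Fcgr3a by 0.80 each (SE 0.19 and 0.34). The sums share the same slices and libraries, so both were then put into 1 model. There Fcgrt kept 1.39 per doubling of the endothelium sum and 0.52 per doubling of the microglia sum, and B2m 0.45 and 0.37, all 4 slopes called, where 18.7% of all genes were called on the endothelium sum and 10.4% on the microglia sum. Fcgr3a had 1.38 on the microglia sum (SE 0.31, edgeR FDR 0.00426) and −0.72 on the endothelium sum (not called, edgeR FDR 0.292). Fcer1g had 0.79 on the microglia sum (edgeR FDR 0.00183) and −0.06 on the endothelium sum (edgeR FDR 0.886). For Trim21 neither slope was called (0.79 and 0.04). Markers of other cells moved with the sums too: 5 of 5 border macrophage, 6 of 6 red blood cell, 7 of 8 mast cell and 7 of 10 choroid plexus markers were called higher with each of them. On the microglia sum 10 of 10 endothelium markers were called higher, and on the endothelium sum 14 of 14 microglia markers. A slope on 1 sum is thus not specific to its cell type, and the model with both rests on related sums. The correlation of Fcgrt with the border macrophage markers was 0.769 in batch 1 (28 animals) and 0.82 in batch 2 (43 animals), with the red blood cell markers 0.719 and 0.736, with the microglia markers 0.871 and 0.805 and with the endothelium markers 0.843 and 0.926, all over slices that share litters and library composition. With the choroid plexus markers it was 0.244 and 0.575, and no slope on that sum was tested. It was lowest with the hippocampal markers, −0.500 and −0.345. The part of these other cells in the slopes was not tested. The endothelium slopes of Fcgr3a and Trim21 were not called in limma voom with random litter effects (39.7% of all genes called), in batch 1 alone (8.05%) or in batch 2 alone (44.2%), whereas those of Fcgrt and B2m were called in each of these fits. Among controls alone 3 of 4 genes tested were called (24.6% of all genes), Fcgr3a being the exception. Without the filter 6 of 7 genes were called (36.6% of all genes), Fcgr1a among them at 1.31 (edgeR FDR 0.0151), and Fcgr2b had 0.78 (edgeR FDR 0.146).

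**Figure D5:**
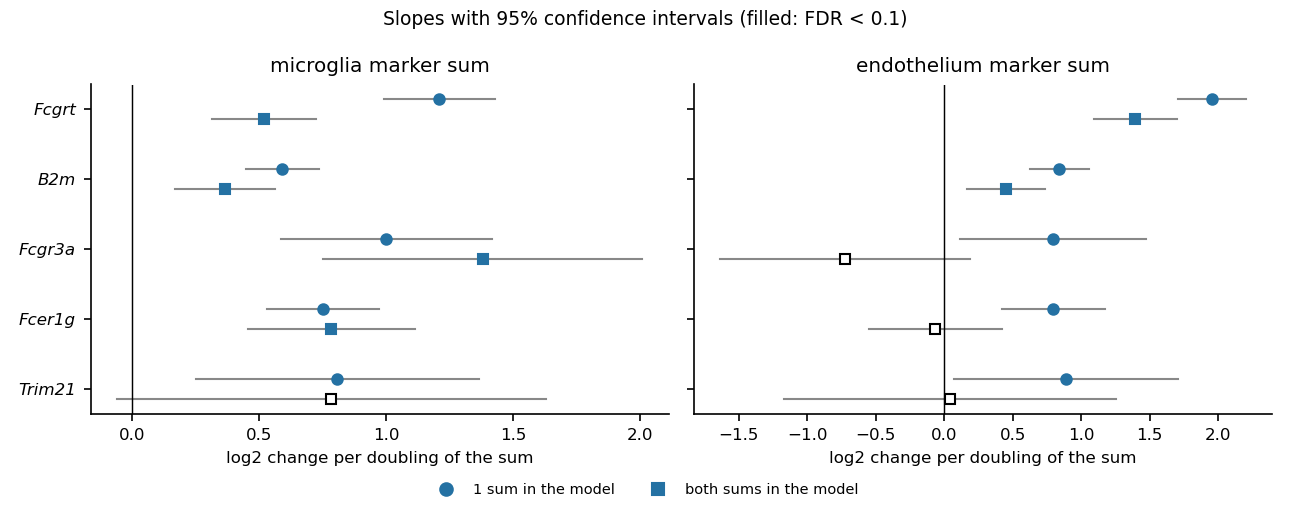
Slope of each gene on the microglia (left) and the endothelium (right) marker sum, in log2 units per doubling of the sum, with 95% confidence intervals; circles have 1 sum in the model, squares both, and filled points passed FDR < 0.1. Fcgrt and B2m stay above 0 on both sums, while Fcgr3a and Fcer1g stay above 0 on the microglia sum and are not called on the endothelium sum once both are in the model.

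The genes whose log2 CPM was most like each receptor's over the 71 animals, after removal of batch means, are given as a description, since animals share litters and library composition. Fcgrt was most like Anxa2 (Pearson's r 0.918), Selenop (0.911) and Ctsk (0.904). B2m was most like Bsg (0.846), an immunoglobulin superfamily protein abundant at the blood-brain barrier, Itm2b (0.842) and the lysosomal protease Ctsl (0.841). Fcer1g was most like Tmem176b (0.684), the protease Ctss (0.681) and Aif1 (0.671), the latter pair of which are in the microglia marker list. Fcgr3a was most like Ctss (0.593), the microglial fractalkine receptor Cx3cr1 (0.582) and LOC498276 (0.562), and Trim21 was most like Myo1e (0.534), Trim34 (0.526) and the B-cell linker Blnk (0.523). Among the receptors themselves, Fcgrt and B2m, the chains of 1 molecule, had the highest r, 0.817 (0.849 within batch 1 and 0.803 within batch 2). Fcgrt and Fcer1g followed at 0.636, and Fcer1g with Fcgr3a had 0.502. Fcgr1a and Fcer1g had 0.411, and Trim21 had 0.0328 with Fcgr2b and 0.0232 with Fcgr1a, genes of few reads.

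Genes that act with the receptors were followed as 6 lists, which were chosen with earlier results of these data known. In the comparison of all exposed animals with controls 0 genes of these lists were called in edgeR, while at an unadjusted p under 0.05, which 10.2% of all genes reached, there were 3 of 18 in Fc receptor signalling, 3 of 15 in FcRn trafficking, 1 of 11 in classical complement, 1 of 24 in Trim21 and interferon genes, and 0 of 21 in MHC class I assembly and 0 of 3 in other Fc receptors. Median log2 differences were 0.07, −0.02, 0.03, 0.00, 0.02 and 0.01 in that order, beside 0.00 over all genes. In CRMP1+CRMP2, where 11.4% of all genes were called, Fc receptor signalling had 2 of 18 higher and 1 lower: the exchange factor Sos1 (0.22) and the ubiquitin ligase Cblb (0.30) rose and the kinase Fyn fell by 0.10. FcRn trafficking had 1 of 15 higher, the recycling adaptor Rab11fip1 (1.03), and 3 lower, among them the early endosome GTPases Rab4a (−0.18) and Rab5a (−0.16). MHC class I assembly had 1 of 21 higher, RT1-A2 (0.58), a classical class I heavy chain. Of the 27 Trim21 and interferon genes, the transcription factor Stat2 rose by 0.21 and Ube2n, the ubiquitin-conjugating enzyme that works with Trim21, fell by 0.16. Of classical complement 0 of 11 and of the other Fc receptors 0 of 4 were called, with 1 gene of each at an unadjusted p under 0.05. In the other 3 patterns 0 genes of these lists were called. The edgeR test over the 5 groups of batch 2 also called 0 genes of these lists (0.00785% of all genes). All CRMP1+CRMP2 animals were of batch 2 and 12 of the 24 controls of batch 1. Rab11fip1 was itself 1.86 higher in the batch 2 controls than in those of batch 1.

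Between the control batches, where 41.5% of all genes were called, genes of the lists were called in both directions. MHC class I assembly had 10 of 21 higher and 2 lower (median 0.41 beside 0.00 over all genes), led by the class I-like molecule Mr1 (1.31), the proteasome activator Psme1 (0.27) and tapasin, Tapbp (0.50). Classical complement had 3 of 11 higher, C1s (0.84), C3 (0.90) and C2 (0.31). FcRn trafficking had 2 of 15 higher and 5 lower, with Rab11fip1 at 1.86, the recycling motor Myo5b at −0.47 and Rab11fip2 at −0.33. Fc receptor signalling had 2 of 17 higher and 5 lower, with Vav3 at 0.71, Pik3r1 at −0.43 and Gab2 at −0.29. Trim21 and interferon genes had 3 of 25 higher and 1 lower, with Ube2v1 at 0.32, Rsad2 at 0.85 and Ssb at −0.17. The IgE receptor beta chain Ms4a2, which is also a mast cell marker, was 1.99 higher and Fcrl2 fell by 0.69.

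With the microglia sum, on which 41.8% of all genes were called and 20.1% upward, 9 of 11 complement genes rose (median 1.20 per doubling, beside 0.00 over all genes), led by the 3 chains of C1q, C1qb (1.38), C1qc (1.27) and C1qa (1.20), the complex that recognises IgG bound to antigen. Of 18 signalling genes 6 rose and 5 fell, and those of smallest p were the inhibitory phosphatases Inpp5d (0.92) and Ptpn6 (1.05) and the kinase Lyn (0.59). All 3 other Fc receptors tested rose, Fcrl2 (1.50), Fcgr2a (0.69) and Ms4a2 (1.58). MHC class I assembly had 12 of 21 higher and 0 lower, with Psmb8 (1.11), Tap2 (0.70) and Hfe (1.56) first. The 24 Trim21 and interferon genes had 7 higher and 2 lower, Irf5 (0.88) and Irf8 (0.92) among those that rose, and FcRn trafficking had 2 of 15 higher, the caveolar protein Cav1 (0.59) and Rab11fip1 (0.98), and 4 lower.

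As to the tissue, all 11 neuronal and all 5 hippocampal markers had reads in every animal, which at this depth does not settle the region of a slice. The sample labels name a coronal slice that includes the hippocampus, and the series' design text names other regions. Markers of choroid plexus and pineal gland varied from slice to slice, with choroid plexus sums from 23.1 to 3584 CPM over the 71 animals. Markers of lymphocytes, monocytes and neutrophils were low. T and NK cell sums were 0.978 to 10.2 CPM, B and plasma cell sums 0 to 2.87 CPM and monocyte and neutrophil sums 0.214 to 3.77 CPM. Mast cell markers reached higher, with Cpa3 from 0 to 36.8 CPM. The sum of 6 red blood cell markers ran from 271.6 to 2336 CPM (median 948.5 CPM).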

How the data were processed

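RNA from 71 PND2 rat brain slices was sequenced as poly-A libraries (paired reads). Per the submitters' processing notes the authors used STAR 2.5.4b and featureCounts, and deposited whole-number read counts per gene on rat build rn7, with no normalization. The deposited table also holds each gene's exon length in bases, from which RPKM was computed here. Totals were 24880182 to 36234952 counts per sample, and 0 columns were left without a sample. Replicates are animals, and the 2 batches were read from the title series.

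Tests used R 4.3.3 with edgeR 4.0.16 (TMM, robust quasi-likelihood, two-sided, Benjamini-Hochberg over all genes tested, FDR < 0.1). Exposure fits held the first surrogate variable (sva 3.50.0), and other fits sex, group or batch as the report states. Genes needed at least 1 CPM in at least 8 samples, or over 1 CPM in at least 2 samples for patterns, control batches, the test over groups and the interaction. limma 3.58.1 (voom) and DESeq2 1.42.0 served as alternatives, with other normalizations, filters and covariates, counts halved or summed per litter, and each litter left out. The main fits other than the endothelium slope were run on simulated counts first. Those counts held no litter effect, and the alternative fits were not run on them. The 7 genes and the lists were chosen with earlier results of these data known. Named list genes are the up to 3 of smallest p among those called, and the 3 genes most alike by Pearson's r of log2 CPM (prior count 2). Promoters are from RefSeq, GRCr8. Intervals are 95%.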

Additional observations from a re-analysis of the deposited data

Results flagged for a closer look

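Fcer1g in 1 CRMP1+CRMP2 animal was 8.81 CPM, set apart from the next highest of its group at 5.80 CPM by a gap that was 0.5261 of the group's range, barely over the critical value of 0.526 (Dixon's test at 95%). Of 28 sets of values tested in this way 1 passed, and chance alone marks about 1 in 20. The same animal had the highest values of its group in Fcgr1a (2.17 CPM), Fcgr3a (1.72 CPM), Fcgr2b (0.862 CPM), Trim21 (1.80 CPM) and Fcgr2a (4.65 CPM), and the highest summed microglia markers of all 71 animals, 169.9 CPM. The part of microglia content in its Fcer1g value was not tested. Without this animal the CRMP1+CRMP2 difference of Fcer1g was 0.06 in place of 0.19.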

How the results depend on the processing

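Called means FDR < 0.1. With DESeq2, other normalizations, no filter, batch and sex terms, counts halved or summed per litter and litter as a random effect, 0 of the receptor genes were called in any exposure comparison, and without the CRMP1+CRMP2 animal highest in Fcer1g it was 0 as well. In CRMP1+CRMP2, 1 gene was called with the choroid plexus sum as a covariate (Trim21, 0.91, FDR 0.0814), and leaving out 1 litter at a time gave 0 to 1 (Fcgrt, 0.56, FDR 0.0756, without 1 control litter of batch 2, but 0.14 without 1 CRMP1+CRMP2 litter). Fcgrt in CRMP1+CRMP2 was −0.017 with PC1 and PC2 as covariates. Between the control batches the count of 1 became 0 with litter sums or a litter random effect and 2 with the microglia sum (Fcgrt and B2m) or the choroid plexus sum (B2m, −0.50, and Fcer1g, −0.96, with Fcgrt at −0.32), and leaving out 1 litter gave 0 to 2. The choroid plexus sums of the control batches did not overlap, so that fit cannot tell batch from choroid plexus content. For the same reason the choroid plexus sum in the CRMP1+CRMP2 fit also separated the control batches. On the microglia sum, 5 calls became 3 in batch 1 alone and 3 in controls alone. On the endothelium sum, chosen after seeing the data, 5 became 3 with a litter random effect, 2 in batch 1 alone, 3 in batch 2 alone, 3 in controls alone and 2 with the microglia sum added, which gave Fcgr3a −0.72 and Fcer1g −0.0632. The causes of these changes were not tested. Between exposure groups no paired analysis was possible because replicate numbers name animals in accession order and each litter belongs to 1 group. Males and females were also compared within litters (litter as a block, chosen after seeing the data), with 0 of 5 genes called, Fcgrt at −0.0183 and Trim21 at 0.23. Low read counts limited Fcgr1a, Fcgr2b, Fcgr3a and Trim21.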
